A study of Mus musculus with 11 samples.

Results

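The first assembled megabase (Mb) of each mouse autosome, bases 3000000 to 4000000 of build mm9, held 13642 of the 1298473 peaks in 7 chromatin immunoprecipitation (ChIP-seq) peak lists of huntingtin (HTT) from striatum. Members were all peaks of the 7 full lists lying within those bases on chromosomes 1 to 19, chosen by position alone. One further peak, in WT replicate 3, straddled base 4000000 and was not counted in either span. The following 5 Mb of the same chromosomes, bases 4000000 to 9000000, held 50943 peaks and served as the comparison. No gene or repeat annotation of mm9 was used here, so stretches are given by position only.

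Mouse chromosomes carry the centromere at one end. Beside it lie long arrays of satellite repeats packed as pericentromeric heterochromatin, and in mouse nuclei these arrays gather into chromocenters. The reference sequence leaves most of that satellite DNA out, so the first assembled bases are the nearest sequence to it that has coordinates. HTT is a large scaffold protein found mostly in the cytoplasm and also in the nucleus, where it binds transcriptional and chromatin regulators. An expanded glutamine tract in HTT causes Huntington's disease, in which the striatum is the region most affected.

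The libraries came from striatum of male mice aged 122 ± 2 days, offspring of B6.HttQ111/+ and B6.Htt+/+ parents. The 4 Q111/+ libraries carry 1 knock-in Htt allele with an expanded CAG repeat and 1 wild-type allele in every cell, and the 3 WT libraries are from wild-type littermates. All 7 used the same anti-HTT antibody, on chromatin that was fixed with formaldehyde, digested with micrococcal nuclease and sonicated. Striatum is a tissue of mixed cell types, which the lists do not separate. Whether each library is a separate animal is not stated in the labels, so p-values describe sample-to-sample spread that could be technical only. Names of the deposited lists begin with DB (Q111/+ replicates 1 and 2, WT replicate 1) or JP (Q111/+ replicates 3 and 4, WT replicates 2 and 3), which the labels do not explain. Those lists held from 88920 to 495334 peaks, WT replicate 1 the most, and read depth is unknown. Because lists differ in length, each library was compared with itself, first megabase against next 5 Mb.

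The first comparison asked whether HTT peaks were denser beside the pericentromere than farther along the same chromosomes. Peaks were denser in the first megabase in every library. In the Q111/+ libraries the first megabase held 52.9, 41.1, 78.4 and 78.6 peaks per Mb (replicates 1 to 4), against 41.3, 32.8, 49.1 and 49.2 in the next 5 Mb. In the WT libraries it held 213, 170 and 83.3 peaks per Mb (replicates 1 to 3), against 191, 115 and 58.2. Every library was higher in the first megabase, by 1.12-fold in WT replicate 1 and by up to 1.60-fold in Q111/+ replicate 4. The log2 ratio of densities averaged 0.47 ± 0.19 (SD, n = 7; two-sided exact sign-flip permutation test over libraries, p = 0.0156, the smallest that 7 libraries allow). The 3 libraries with the DB prefix had log2 ratios of 0.36, 0.33 and 0.16, all below the 4 with the JP prefix, at 0.67, 0.68, 0.57 and 0.52. The direction was the same under both prefixes.

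Covered length, the number of bases under at least 1 peak, differed more than peak number. In Q111/+ libraries peaks covered 21.5, 16.4, 31.0 and 30.0 kilobases (kb) per Mb of the first megabase, against 9.25, 7.04, 11.8 and 11.2 in the next 5 Mb. In WT libraries they covered 65.2, 52.8 and 29.6 kb per Mb, against 47.7, 26.3 and 12.4. The first megabase was covered more in each library, by 1.37-fold in WT replicate 1 to 2.68-fold in Q111/+ replicate 4. The log2 ratio averaged 1.14 ± 0.33 (SD, n = 7; exact sign-flip p = 0.0156). The lists were called separately and differ in how much they call. In lists cut to equal length, the 88920 peaks of highest −log10 p each, the log2 ratio was 1.42.

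**Figure D1:**
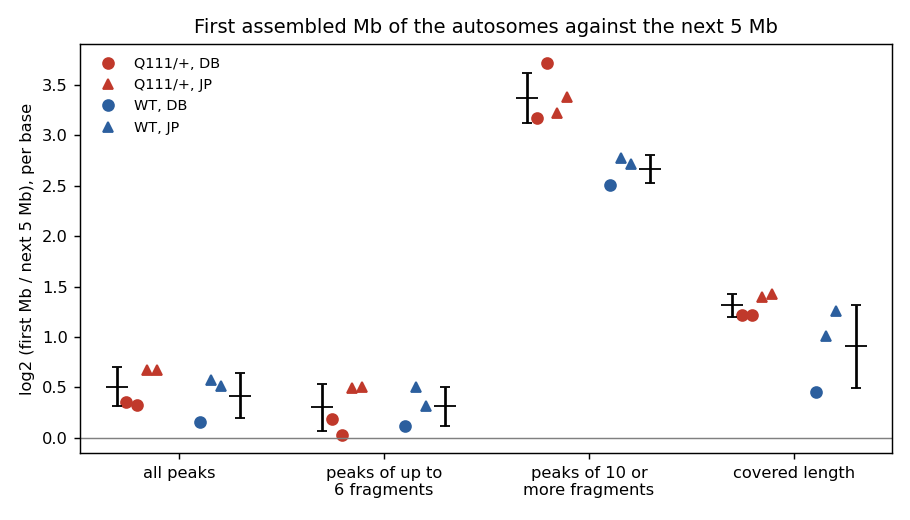
Log2 ratio of the first assembled Mb to the next 5 Mb, per base, for all peaks, for peaks of up to 6 and of 10 or more fragments, and for covered length. Each point is 1 library (circles DB prefix, triangles JP prefix; red Q111/+, blue WT), and black bars are the genotype mean ± SD (n = 4 and 3). All points lie above 0, and peaks of 10 or more fragments have the highest ratios, from 2.51 to 3.72.

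The median peak differed little between the spans. Median fold enrichment, the authors' ratio of a peak to its local background, was equal in the 2 spans within each library, and lay between 2.78 and 3.42 over the libraries. Fold takes few values among peaks of few fragments over the list's commonest background, so medians easily tie. In Q111/+ replicate 1 the median, 3.38, was the fold of 5 fragments over that background. Equal medians therefore cannot show that fold was alike in the 2 spans. Median width was 198, 192, 226 and 210 bp in the Q111/+ libraries and 218, 206 and 182 bp in the WT libraries. It exceeded that of the next 5 Mb by 12.7 ± 3.20 bp (SD, n = 7; higher in 7 of 7 libraries, exact sign-flip p = 0.0156). The share of peaks whose −log10 q reached 2 was higher by 2.48 ± 1.80 percentage points (SD, n = 7; 7 of 7 libraries, exact sign-flip p = 0.0156). In the equal-length lists that last difference was 0.512 points (exact sign-flip p = 0.25).

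The 2 spans differed far more in their peaks of many fragments. The number of DNA fragments at a peak's summit was recovered from its deposited fold and p-value, and peaks of 10 or more fragments are called strong here. Strong thus refers to fragment number and not to fold. Over a higher local background a peak needs more fragments to be called, so this class is tied to raised background by construction. Strong peaks made up 10.2%, 14.9%, 7.12% and 8.64% of first-megabase peaks in the Q111/+ libraries and 2.69%, 2.87% and 8.72% in the WT libraries. In the next 5 Mb they made up 1.45%, 1.41%, 1.22% and 1.33%, and 0.530%, 0.624% and 1.90%. The share was higher in the first megabase in 7 of 7 libraries, by 6.67 ± 3.90 percentage points (SD, n = 7; exact sign-flip p = 0.0156).

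By number, the first megabase held 103, 116, 106 and 129 strong peaks in the Q111/+ libraries and 109, 93 and 138 in the WT libraries, although the lists differ in length over 5-fold. The next 5 Mb, a span 5 times as long, held 57, 44, 57 and 62, and 96, 68 and 105. Per base, strong peaks were 5.68-fold to 13.2-fold denser in the first megabase, a mean log2 ratio of 3.07 ± 0.42 (SD, n = 7; exact sign-flip p = 0.0156). These numbers also depend on how each list divides a block into peaks. On chromosome 11, Q111/+ replicate 2 held 53 strong peaks and WT replicate 2 held 20, though peaks covered 67.4% and 84.2% of its first 100 kb. Strong peaks were not counted after merging neighbours. Peaks of up to 6 fragments, which were 72.2% to 90.8% of first-megabase peaks, were denser by 1.02-fold to 1.42-fold, a log2 ratio of 0.31 ± 0.20 (SD, n = 7; 7 of 7 libraries, exact sign-flip p = 0.0156). Both classes were thus denser beside the pericentromere, the strong one far more. For peaks of up to 6 fragments the excess moved with the file-name prefix. Their log2 ratios were 0.19, 0.03 and 0.12 in the DB libraries, and 0.49, 0.51, 0.50 and 0.32 in the JP libraries.

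**Figure D2:**
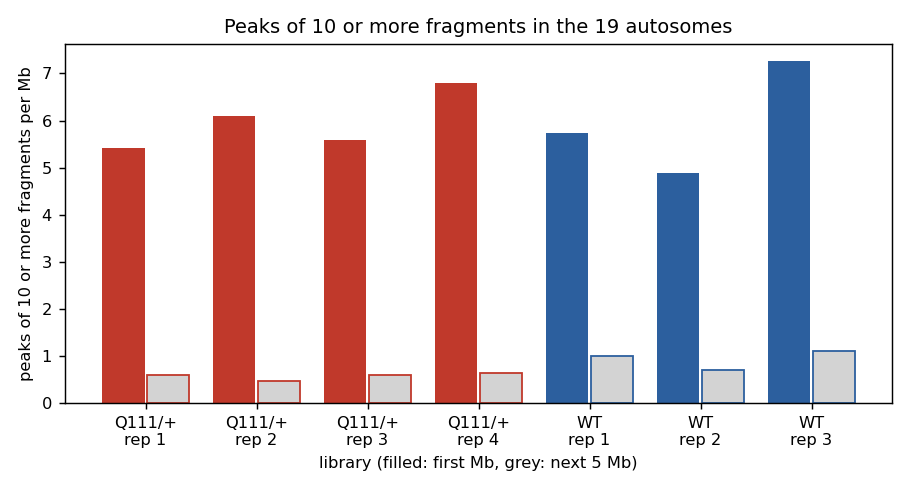
Peaks of 10 or more fragments per Mb in each of the 7 libraries. Filled bars (red Q111/+, blue WT) are the first assembled Mb and grey bars the next 5 Mb; filled bars stand for 93 to 138 peaks in 19 Mb, and each exceeds its grey neighbour at least 5.68-fold.

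Wide peaks were also concentrated there. Peaks at least 1 kb wide numbered 48 to 58 per library in the first megabase, and 12 to 50 per library in the next 5 Mb. These wide peaks held 36.0% to 45.4% of the covered length of the first megabase in the Q111/+ libraries, and 17.9%, 23.1% and 40.6% in the WT libraries. The widest in every list was the same block on chromosome 9, 38175 to 38299 bp long.

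The local background implied by each peak's fold and p-value was raised more often in the first megabase. Backgrounds over 1.5 times the list's commonest value were found at 13.0%, 19.1%, 7.25% and 9.11% of its peaks in the Q111/+ libraries and at 5.82%, 5.31% and 8.60% in the WT libraries. In the next 5 Mb the shares were 6.04%, 5.74%, 1.84% and 3.00%, and 4.97%, 3.69% and 3.09%. The difference was 5.69 ± 4.09 percentage points (SD, n = 7; 7 of 7 libraries, exact sign-flip p = 0.0156). The log2 ratio of the median backgrounds was 0.00466 (SD 0.0123, n = 7; exact sign-flip p = 0.5). Both medians lay at the list's commonest value except in Q111/+ replicate 2, with 1.33 fragments in the first megabase and 1.30 beyond. The median therefore could not register a background raised at a minority of peaks. The background is the level against which each peak was called. No label names the control, so whether it counts ChIP or input fragments is not known. Because a peak called over a raised background holds more fragments, these shares and those of strong peaks are not independent results. The part of a raised background in the excess of peaks was not tested.

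On average over the libraries, the excess was largest in the first 100 kb. Relative to the density of the next 5 Mb in the same library, peak density was 2.26 ± 0.58 times as high in the first 100 kb (SD, n = 7; range 1.06 to 2.81). It was 1.99 ± 0.45 times as high in the second 100 kb, 1.53 ± 0.27 in the third and 1.41 ± 0.15 in the fourth. All 7 libraries were above 1 in each of those 4 bins, and from 500 to 1000 kb the bin means lay between 1.04 and 1.17. The lowest value in the first bin, 1.06, was that of WT replicate 1, which has the longest list. At the edge of the span, the last 100 kb inside stood at 1.10 ± 0.06 and the first 100 kb outside at 1.07 ± 0.06, a gap smaller than the spread of either.

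The first 500 kb held 60.7% to 61.6% of first-megabase peaks in 6 libraries and 51.9% in WT replicate 1. Strong peaks were gathered more tightly. Of the 794 strong peaks in the 7 lists, 474 (59.7%) lay in the first 100 kb, 130 in the second and 80 in the third, and the first 500 kb held 89.9% to 98.3% of them in each library. Beyond the first 500 kb the log2 density ratio was 0.15 for all peaks (exact sign-flip p = 0.0469, n = 7), 0.17 for covered length (exact sign-flip p = 0.0469, n = 7) and -0.34 for strong peaks (exact sign-flip p = 0.125, n = 7). The excess of strong peaks thus lay in the first 500 kb.

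**Figure D3:**
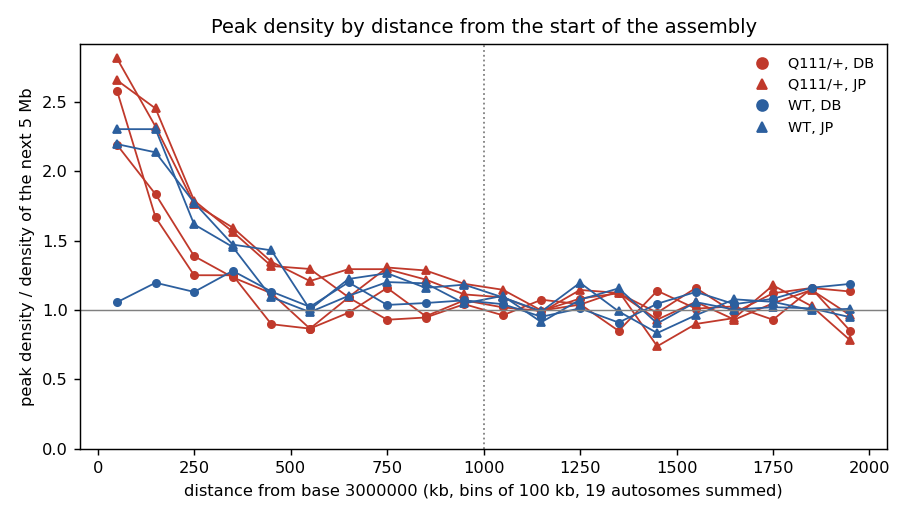
Peak density in 100 kb bins, summed over 19 autosomes, as a multiple of the same library's density in the next 5 Mb, against distance from base 3000000 in kb. Each line is 1 library (circles DB prefix, triangles JP prefix; red Q111/+, blue WT), the dotted line is the end of the first Mb; the bin mean falls from 2.26 to 1.10 along it, and WT replicate 1 stays between 1.02 and 1.28.

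Autosomes differed among themselves. The mean log2 ratio was above 0 for 16 of the 19, and the first megabase was denser than the next 5 Mb in all 7 libraries for 8 of 19, chromosomes 2, 3, 4, 5, 7, 8, 9 and 13. Of all autosomal 1 Mb windows set against their own next 5 Mb, 6.78% were denser in all 7 libraries. The same 8 passed the exact sign-flip test with Benjamini-Hochberg adjustment over 19 autosomes (adjusted p = 0.0371 each, n = 7). Only autosomes with all 7 libraries on the same side of 0 passed, so the test restates that count. In the other direction 0 passed, and 1 autosome had an unadjusted exact p under 0.05. The first megabase was the densest 1 Mb window of its whole chromosome on 6 autosomes (2, 3, 6, 11, 16 and 18).

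The highest ratios were on chromosomes 16, 4, 3, 13 and 5. Chromosome 16 averaged 1.24 ± 0.92 (SD, n = 7; exact sign-flip p = 0.0312, adjusted p = 0.0594). Its first megabase held 74, 72, 161 and 138 peaks in the Q111/+ libraries and 240, 269 and 138 in the WT libraries. The next 5 Mb held 59.6, 41.6, 27.2 and 36.4 peaks per Mb, and 242, 83.4 and 53.0. The 4 JP libraries had chromosome 16 ratios from 1.38 to 2.57 and the 3 DB libraries from -0.01 to 0.79, so the prefixes did not overlap and 1 library, WT replicate 1, showed no excess.

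Chromosome 4 was more even, at 0.88 ± 0.24. Its first megabase held 83, 48, 112 and 113 peaks in the Q111/+ libraries and 230, 250 and 115 in the WT libraries, against 38.6, 33.0, 54.8 and 61.8, and 157, 124 and 55.6 per Mb beyond. Chromosome 3 averaged 0.82 ± 0.36, chromosome 13 averaged 0.75 ± 0.25 and chromosome 5 averaged 0.65 ± 0.24 (SD, n = 7 each). In these 4 chromosomes each library was higher in the first megabase.

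The lowest ratios were on chromosomes 14, 10, 1, 15 and 12. Chromosome 14 averaged -0.21 ± 0.22 (SD, n = 7; exact sign-flip p = 0.0312, adjusted p = 0.0594). It held 22, 23, 44 and 50 peaks in the Q111/+ libraries and 144, 114 and 61 in the WT libraries, against 34.2, 24.0, 53.6 and 50.2, and 172, 133 and 60.8 per Mb beyond. Its first megabase was thus sparser than the next 5 Mb in 5 libraries and level with it in Q111/+ replicate 4 and WT replicate 3. Chromosomes 10 and 1 averaged -0.04 each, chromosome 15 averaged 0.02 and chromosome 12 averaged 0.23, and libraries of each fell on both sides of 0. The first megabase ranked 1st in peak density among the 95 windows of chromosome 16. It ranked 87th among the 122 windows of chromosome 14 and 88th among the 194 of chromosome 1.

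Ratios moved with the file-name prefix in part of the autosomes. All 4 JP ratios lay above all 3 DB ratios on 7 of 19 autosomes, against 22.4% of all autosomal windows, and the reverse held on 0 of 19, against 19.7% of windows. The prefix means over the whole first megabase were 0.28 (DB) and 0.61 (JP).

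**Figure D4:**
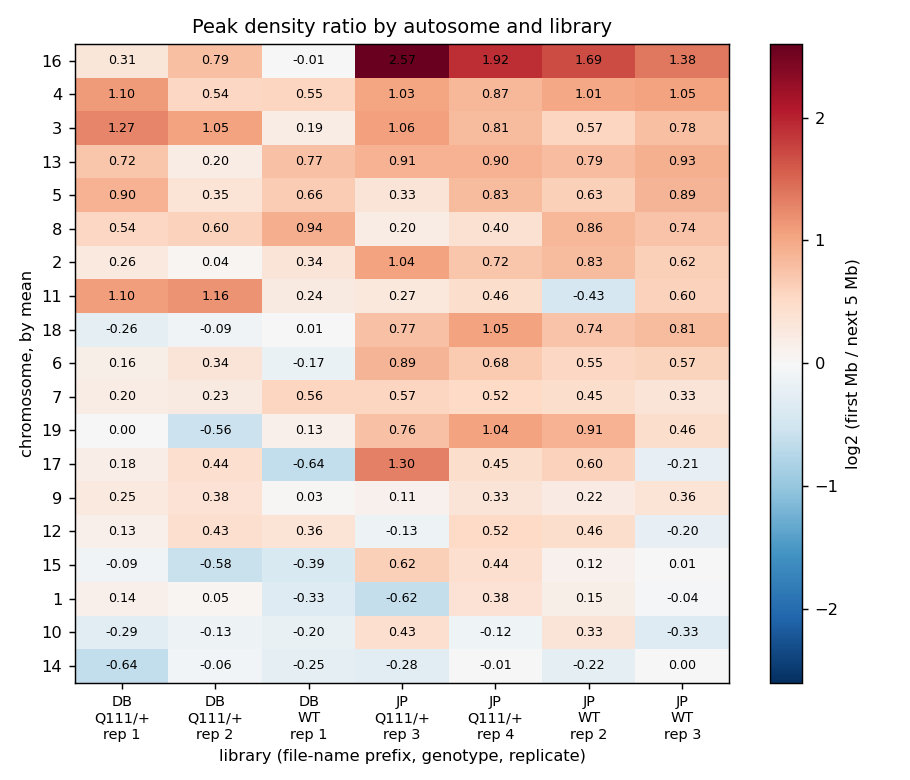
Log2 ratio of peak density, first Mb against next 5 Mb, for each autosome (rows, ordered by mean) and library (columns, ordered by file-name prefix). Red cells are denser in the first Mb and blue cells sparser; chromosome 16 reaches 2.57 in Q111/+ replicate 3, and chromosome 14 lies between -0.64 and 0.00.

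Strong peaks came from few chromosome starts. Chromosome 11 held 231 of the 794 (29.1%), chromosome 16 held 148 (18.6%), chromosome 17 held 86 (10.8%), chromosome 3 held 82 (10.3%) and chromosome 4 held 65 (8.19%), together 77.1%. On chromosome 11 they numbered 40, 53, 20 and 27 in the Q111/+ libraries and 36, 20 and 35 in the WT libraries. On 10 autosomes at least 1 list held no strong first-megabase peak. Without chromosomes 3, 4, 11, 16 and 17 the strong-peak log2 ratio was 1.39 (exact sign-flip p = 0.0156, n = 7), and that of all peaks 0.33 (exact sign-flip p = 0.0156, n = 7). The excess was therefore smaller but present on the remaining chromosomes together.

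Peaks covered the largest shares of the first 100 kb on chromosomes 11, 9, 17 and 3, as 1 continuous peak at the start of chromosome 9 and as several separate peaks on the other three. Of the first 100 kb of chromosome 11, peaks covered 75.1%, 67.4%, 81.8% and 81.6% in the Q111/+ libraries and 77.8%, 84.2% and 82.4% in the WT libraries. Chromosome 9 had a covered share of 38.4% to 46.5%, chromosome 17 of 25.7% to 40.9% and chromosome 3 of 16.6% to 33.3%. By contrast, means on chromosomes 1 and 14 were 1.69% each. The lists covered many of the same bases. On chromosome 11, 58.4% of the first 100 kb was covered in all 7 lists, and 87.1% in at least 1. On chromosome 9 these shares were 38.2% and 56.8%, on chromosome 17 they were 23.2% and 47.4%, and on chromosome 3 they were 9.18% and 44.4%. On chromosomes 1 and 14 no base of the first 100 kb was covered in all 7 lists.

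**Figure D5:**
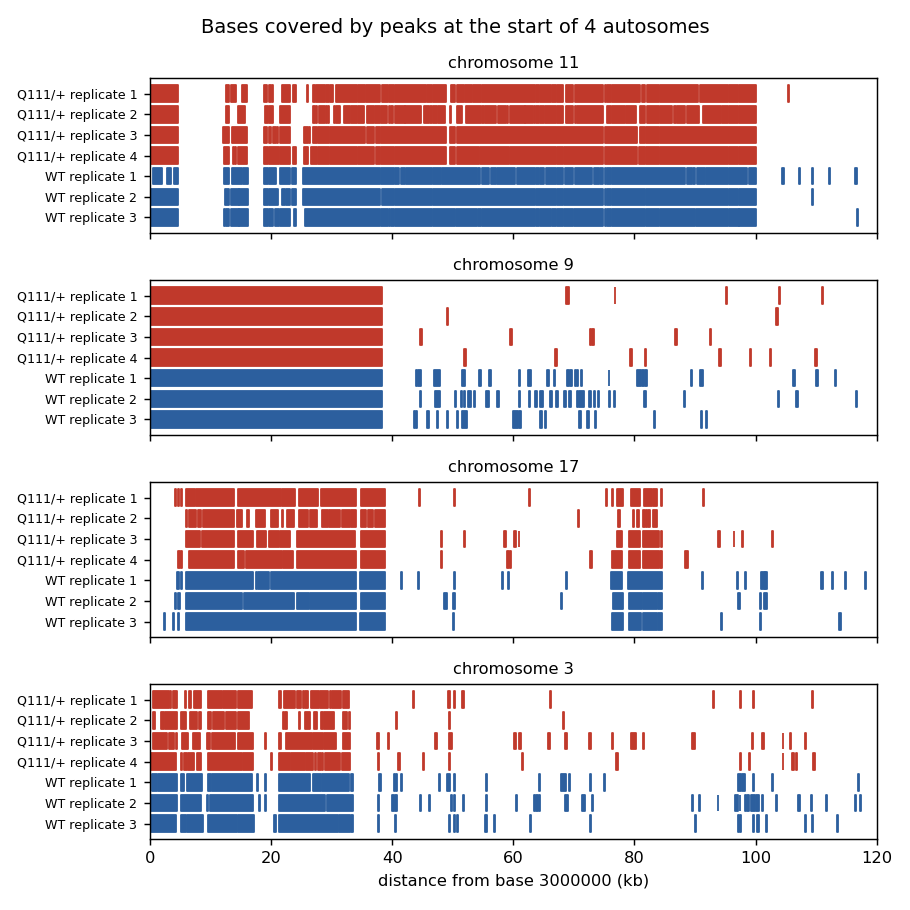
Bases covered by peaks in the first 120 kb of chromosomes 11, 9, 17 and 3, by library (rows; red Q111/+, blue WT), against distance from base 3000000 in kb. Filled stretches are bases under a peak; 78.6% of the first 100 kb of chromosome 11 is covered on average, and the block at the start of chromosome 9 is 1 peak in every list.

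A second comparison asked how far the libraries called the same places. In the equal-length lists, 41.3%, 42.1%, 32.4% and 34.5% of first-megabase peaks in the Q111/+ libraries overlapped a peak of another library, and 38.6%, 37.6% and 37.3% in the WT libraries. In the next 5 Mb the shares were 21.6%, 19.4%, 18.6% and 19.8%, and 22.7%, 22.8% and 24.2%. The spans did not overlap, and the difference was 16.4 ± 3.54 percentage points (SD, n = 7; exact sign-flip p = 0.0156). In these lists the first megabase was also denser and more covered, with log2 ratios of 0.57 and 1.42. Denser coverage by itself makes overlap between lists more frequent. Its part in this difference, and in the region counts that follow, was not tested.

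Overlapping peaks of the equal-length lists merged into 5457 regions in the first megabase, of which 50 were called in all 7 libraries (0.916%, or 2.63 per Mb). Over the autosomes 0.142% of 527892 regions were called in all 7, and in the next 5 Mb 39 of 21268 (0.183%, or 0.411 per Mb). The first megabase of the 19 autosomes thus held 6.69% of the 747 autosomal regions called in all 7, and 1.03% of regions of any kind. These 50 regions had a median width of 2063.5 bp and spanned 263 kb, against 1381 bp and 85.8 kb for the 39 beyond. They lay on chromosomes 16 (11 regions), 11 and 4 (9 each), 3 (6), 17 (4), 6 and 18 (3 each) and, with 1 each, 8, 9, 10, 13 and 14. The remaining 7 autosomes had none. By distance, 23 lay in the first 100 kb, 13 in the second, 6 in the third and 5 in the fourth.

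The region shared by all libraries that ranked highest by −log10 p opened chromosome 9, at bases 3000011 to 3038309 (mm9, 38299 bp). Fold and background of a region are given for its peak of highest −log10 p in each list. Here it was 1 peak per list, covering 99.7% to 100% of the region. The authors' fold enrichment there was 3.47, 3.32, 4.31 and 4.00 in the Q111/+ lists and 2.67, 4.50 and 3.62 in the WT lists, with overlap between genotypes. That fold was near that of a median first-megabase peak in some lists. It lay below the list's median in Q111/+ replicate 2 (3.42) and WT replicate 1 (3.19), and above it in the other lists. The region's local background was 1918 to 2162 times the list's commonest value, far above that of the other regions named here.

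On chromosome 11, 2 neighbouring regions followed in rank. The one at 3075132 to 3100061 (24930 bp) had a fold of 5.27, 3.82, 4.84 and 4.43 in the Q111/+ lists and 8.03, 7.58 and 7.66 in the WT lists. It was split into 4 to 13 peaks per list, and its background was 8.23 to 16.1 times the commonest. The one at 3038242 to 3074855 (36614 bp) had a fold of 4.26 ± 0.64 (SD, n = 4) in Q111/+ and 7.45 ± 1.08 (SD, n = 3) in WT lists, in 3 to 26 peaks per list. The number of peaks in a strong block thus depends on how each list divides it.

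Regions of the highest ranks on chromosome 4 lay at 3016692 to 3018689 (1998 bp) and 3006467 to 3013165 (6699 bp). Fold at the first was 4.59 ± 0.68 in Q111/+ and 5.25 ± 2.07 in WT lists, with a background 48.9 to 70.5 times the commonest. At the second it was 4.89 ± 0.61 and 10.9 ± 1.92, with a background 3.72 to 6.11 times the commonest. The background was thus much lower at the second in every list. Fold there was higher in each WT list, while the Q111/+ means lay within their spread.

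On chromosome 18 the regions at 3004179 to 3006724 (2546 bp) and 3008418 to 3011272 (2855 bp) had folds of 2.40 ± 0.33 and 3.77 ± 0.65 in Q111/+ lists, and 3.27 ± 0.36 and 5.96 ± 0.99 in WT lists. On chromosome 17 the region at 3005910 to 3034097 (28188 bp) had 5.49 ± 0.22 and 9.16 ± 1.25. On chromosome 16 the region at 3231599 to 3241828 (10230 bp) had 4.46 ± 0.82 and 6.17 ± 1.87. Chromosome 13 had a short one farther in, at 3372172 to 3372960 (789 bp), with 2.26 ± 0.30 and 3.62 ± 0.22. Backgrounds, as multiples of the commonest, were 39.2 to 59.7 and 7.02 to 10.3 at the chromosome 18 regions, 3.63 to 7.36 on chromosome 17, 4.71 to 8.41 on chromosome 16 and, in the 6 lists where it was recovered, 39.6 to 51.1 on chromosome 13. In all these regions (SD, n = 4 Q111/+ and n = 3 WT) mean fold was higher in the WT lists. At the first chromosome 18 region and the chromosome 13 region, fold in every Q111/+ list was below that list's median first-megabase peak. In WT lists it was above that median, except in WT replicate 2 at the chromosome 18 region.

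Fold in all 3 WT lists lay above that in all 4 Q111/+ lists at 16 of the 50 regions (32%), and the reverse held at 1. Over the autosomes the shares were 33.5% and 0.134% of 747 regions called in all 7, which include these 50. Over the rest of the autosomes fold was higher in all WT lists at 234 of 697 regions (33.6%), and the reverse held at 0. The share with higher WT fold beside the pericentromere was thus near the background. Fold belongs to a list called separately, and the difference was not tested.

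The genotype comparison asked whether the excess differed between Q111/+ and WT striatum. For all peaks the log2 density ratio was 0.51 ± 0.19 in Q111/+ (SD, n = 4) and 0.42 ± 0.22 in WT (SD, n = 3), a difference of 0.09 (two-sided exact permutation over 35 splits, p = 0.6). Values of the genotypes overlapped over the 7 libraries. Within each prefix the Q111/+ values lay above the WT values, by a mean of 0.18 in DB and 0.13 in JP. With the prefix as a block the difference was 0.16 (exact permutation p = 0.0556, the smallest that block allows). For covered length the ratio was 1.31 ± 0.11 in Q111/+ and 0.91 ± 0.41 in WT, a difference of 0.41 (exact permutation p = 0.0857; within DB 0.76, within JP 0.28). With the prefix as a block it was 0.52 (exact permutation p = 0.0556). WT replicate 1 had the lowest value, 0.45, and without it the difference was 0.18. In the equal-length lists it was -0.01. For peaks of up to 6 fragments the difference was -0.01 (exact permutation p = 0.971).

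The ratio for strong peaks, a class defined after seeing the data, separated the genotypes. It was 3.18, 3.72, 3.22 and 3.38 in the Q111/+ libraries and 2.51, 2.77 and 2.72 in the WT libraries, a difference of 0.71 (exact permutation over 35 splits, p = 0.0286, the smallest that 4 against 3 allows; within DB 0.94, within JP 0.55). All 4 Q111/+ values lay above all 3 WT values. The 2 terms of the ratio differed in behaviour. The number of strong peaks in the first megabase overlapped between genotypes, with a log2 difference of 0.02 (exact permutation p = 0.943). In the next 5 Mb the Q111/+ lists held fewer strong peaks, 44 to 62 against 68 to 105, with a log2 difference of -0.69 (exact permutation p = 0.0286; within DB -0.94, within JP -0.51). The separation did not hold without the first 100 kb, where the difference was 0.27, or without chromosomes 3, 4, 11, 16 and 17, where it was 0.17 (exact permutation p = 0.486 in both). List lengths, which were shorter in all Q111/+ libraries, move with genotype, and their part in this difference was not tested. Strong peaks were counted as each list divides its blocks, and the part of that division was not tested either.

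Window by window, each first megabase was described by its share of the list's autosomal peaks. The genotypes did not overlap in 2 of 19 first-megabase windows, against 3.66% of all 2406 autosomal windows. Chromosome 17 lay higher in all Q111/+ lists (0.0622% ± 0.0103 against 0.0437% ± 0.00455; exact permutation p = 0.0571), as were 1.95% of all windows. Chromosome 19 lay higher in all WT lists (0.0495% ± 0.00710 in Q111/+ against 0.0615% ± 0.00401; exact permutation p = 0.0571), as were 1.7% of all windows. Over all windows 0 passed the exact permutation test with Benjamini-Hochberg adjustment (lowest adjusted p = 1). An unadjusted exact permutation p under 0.05 was found at 45, and none of those 45 was a first-megabase window. The 35 splits allow no exact permutation p under 0.0286. With 2406 windows, some could pass only if a very large share of them reached that p. The adjusted test therefore could not single out a few windows.

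Regions called in only one genotype were few. In the first megabase 1 region appeared in the 4 equal-length Q111/+ lists and in none of the WT ones, a class that was 0.00947% of autosomal regions, and 6 of 5457 appeared in the 3 WT lists and in none of the Q111/+ ones, a class that was 0.0754%. The Q111/+ region lay on chromosome 16 at 3270642 to 3271069 (428 bp), with 5, 5, 7 and 10 fragments and a fold of 3.66 ± 0.33 (SD, n = 4). No full WT list had a peak there.

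The 3 WT regions ranked highest lay on chromosome 9 at 3174738 to 3175602 (865 bp), chromosome 12 at 3336370 to 3336937 (568 bp) and chromosome 14 at 3894440 to 3894698 (259 bp). The first held 8, 6 and 9 fragments (fold 5.39 ± 0.92, SD, n = 3), and the full lists of Q111/+ replicates 1 and 3 had weaker peaks of 4 fragments there. The other two held 6, 6 and 8 fragments each (fold 4.68 ± 0.24, SD, n = 3), with no peak in any full Q111/+ list. With 5 to 10 fragments at a summit, absence from a list cannot be told apart from a summit just under the calling threshold.

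Peaks reached most of the span in at least 1 list. Of its 1900 bins of 10 kb, 20 (1.05%) held no peak in any of the 7 lists, against 211 of 9500 (2.22%) in the next 5 Mb.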

How the data were processed

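Each of the 7 HTT ChIP-seq libraries has 1 deposited peak list; data of the 4 input libraries were not used here. The submitters' processing notes list Bowtie2 2.2.5, MACS2 2.1 and mm9, without roles. List names give a MACS p of 0.001, per the deposited files. No label names the control used in peak calling. The authors' fold column is a ratio of each peak to its local background, and the authors' −log10 columns hold p and q values. The authors' score column, derived from −log10 p, was not analysed, and the summit offset served only in an alternative that assigned peaks by summit.

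The members and lists were chosen with earlier results of these data known. Coordinates are 1-based. Fragments were recovered from fold, (scaled pileup + 1) / (scaled background + 1), and the Poisson p, as whole numbers under a scale fitted per list (tolerance 0.02 in −log10 p, up to 60 fragments). Of peaks with −log10 p up to 60, between 99.86% and 99.99% matched in each list. Peaks beyond that limit were solved without whole numbers and counted as strong (lowest 14.1 fragments). In 4000 simulated peaks per scale, 100% of fragment numbers were right. Splitting peaks by fragments and by raised background was added after seeing the data.

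Equal-length lists hold the 88920 peaks of highest −log10 p (ties by fold, then at random, seed 11). Regions merge peaks overlapping by at least 1 bp. First and next spans were compared by two-sided exact sign-flip over 7 libraries, genotypes by two-sided exact permutation over 35 splits, with Benjamini-Hochberg adjustment over 19 autosomes or all windows. Regions named were the 10 called in all 7 lists with the highest lowest percentile of −log10 p, and up to 3 called in only one genotype, ranked alike. Autosomes named were the 5 highest and 5 lowest by mean ratio; others were chosen after their values were seen. Depth is unknown, so no counting intervals are given. Computations used scipy 1.17.1, numpy 2.4.6 and pandas 2.3.3 under Python 3.11.15, with figures from matplotlib 3.10.9.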

Additional observations from a re-analysis of the deposited data

Results flagged for a closer look

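The log2 density ratio of peaks of 10 or more fragments, first megabase against next 5 Mb, was higher in Q111/+ by 0.71 (exact permutation p = 0.0286). The log2 number of such peaks in the next 5 Mb, which is a term of that ratio, was -0.69 in Q111/+ relative to WT (exact permutation p = 0.0286). On chromosome 8 the log2 ratio of all peaks was -0.41 in Q111/+ relative to WT (exact permutation p = 0.0286 unadjusted, and 0.543 with Benjamini-Hochberg adjustment over 19 autosomes), and its first megabase was denser than the next 5 Mb in all 7 libraries. No library stood apart from its group in the 28 groups of 4 values that were checked, where chance alone would mark about 1 in 20. WT replicate 1 belongs to groups of 3 libraries by genotype and by prefix, so this check could not mark it. Its list was the longest, at 495334 peaks. Its peak density in the first 100 kb, 1.06 times that of the next 5 Mb, was the lowest.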

How the results depend on the processing

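Depth is unknown, p-values rest on 7 libraries, and file-name prefix and list length move with part of the values. The ratios of peak density and covered length kept their direction and stayed under an exact p of 0.05 in all their alternatives, with ranges of 0.15 to 0.57 and 0.17 to 1.42. The lowest came without the first 500 kb, an alternative added after seeing the data, as were leaving out the first 100 kb or chromosomes 3, 4, 11, 16 and 17, and all splits by fragments. With peaks under 1 kb apart merged, the density ratio was 0.32. Differences in recurrence (13.0 to 16.9 points) and width (12 to 20.2 bp) also held, as did counts of autosomes denser in 7 libraries (8 to 10), of windows apart by genotype (2 to 3) and of regions called in all 7 (34 to 58, and 51 to 61 called in all 6 remaining lists with 1 left out). The difference in the share at −log10 q of at least 2 fell to 0.512 points in equal-length lists, and the strong-peak ratio was -0.34 without the first 500 kb.

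Several genotype differences changed sign. That in peak density was -0.067 without the 5 chromosomes, -0.0147 without the first 500 kb, -0.0559 in equal-length lists, -0.000668 as a median over autosomes, and -0.0350 to 0.170 with 1 library left out, negative only without WT replicate 1; with the prefix as a block it was 0.16. That in covered length was -0.0138 without the first 500 kb, -0.00672 in equal-length lists, 0.18 to 0.58 with 1 library left out, and 0.52 with the prefix as a block. That in peaks of up to 6 fragments was -0.107 to 0.0861 with 1 library left out and 0.0404 with the prefix as a block. That in the number of strong first-megabase peaks was -0.117 to 0.167 with 1 library left out.

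The genotype difference in the strong-peak ratio was 0.17 without the 5 chromosomes, 0.27 without the first 100 kb and -0.18 without the first 500 kb. With 1 library left out it was 0.59 to 0.77, and that in strong peaks of the next 5 Mb was -0.88 to -0.57; those designs cannot give an exact permutation p under 0.0667. With the prefix as a block they were 0.75 and -0.72 (exact permutation p = 0.0556, the smallest that block allows). The cause of these changes was not tested.

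Replicate numbers did not pair the samples. Over autosomes, deviations of same-numbered libraries correlated at 0.87, -0.78 and 0.29. The sign went with the file-name prefix. Over all pairs of a Q111/+ and a WT library, those sharing a prefix correlated at 0.29 to 0.87, and the others at -0.88 to -0.28. With the replicate number as a block, which cannot give an exact p under 0.25, the genotype difference was 0.04 for peak density, 0.37 for covered length, 0.71 for the strong-peak ratio, -0.0478 for strong peaks in the first megabase and -0.75 in the next 5 Mb.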

Other observations

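The X chromosome was outside the rule for members. Its first assembled megabase held 23, 10, 62 and 53 peaks in the Q111/+ libraries and 82, 148 and 56 in the WT libraries. The next 5 Mb of X held 17.2, 12, 32.2 and 31.6 peaks per Mb, and 61.6, 78.4 and 32.8. The log2 ratios were 0.42, -0.26, 0.95, 0.75, 0.41, 0.92 and 0.77 in the same order, above 0 in 6 of 7 libraries, and the 4 JP libraries were higher than the 3 DB libraries.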
